A study of Homo sapiens with 6 samples.

Results

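Nuclear pore and nuclear transport genes were examined in MDA-MB-231 cells given an siRNA against ING2. The group was chosen by gene symbol, as nucleoporins named NUP with a number, importin alpha and beta genes (KPNA and KPNB), importins (IPO) and exportins (XPO), without XPO5. It held 47 of the 19777 genes that probe sets of the array name singly. Of these, 42 are protein-coding and 5 are noncoding transcripts or pseudogenes whose symbols begin with the same letters. The protein-coding members were 23 nucleoporins and 19 transport receptors. Each gene was represented by its brightest probe set, the array's unit of measurement for a transcript, over the 6 arrays.

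The cells belong to an established line, derived from a human breast tumour, that lacks hormone receptors and has a mesenchymal form. The 3 control samples were transfected with a non-targeting siRNA and the 3 others with 1 siRNA against ING2. ING2 encodes a PHD finger protein found with SIN3 and histone deacetylases. RNA was collected 4 days after transfection by one field of the labels and 3 days by another. The labels do not say whether replicates came from separate cultures. The p-values therefore reflect only how far these samples spread, which may be technical.

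The nuclear pore complex is a ring of nucleoporins set in the nuclear envelope. Scaffold subcomplexes, among them the Y complex and the inner ring, hold its shape, and nucleoporins with phenylalanine-glycine repeats fill the channel and bind transport receptors. Importins carry cargo into the nucleus, exportins carry it out, and the GTPase Ran, loaded with GTP in the nucleus, releases import cargo and binds with export cargo. Dividing cells take the complex apart in mitosis and rebuild it, and they need new pores as the nucleus grows.

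The targeted gene, ING2, read 1324 to 1400 units in controls and 161 to 188 units after ING2 siRNA, 12.5% of control (limma adjusted p = 1.85e-07). Median intensity per array was 77.1, 75.6 and 75.6 units in controls and 81.4, 78.3 and 80.2 units after ING2 siRNA, with no overlap. The interquartile range of log2 intensity was 3.34, 3.38 and 3.33 in controls and 3.11, 3.27 and 3.17 after ING2 siRNA, again with no overlap. Precision is limited by having 3 arrays per group. The line markers VIM, CD44, EGFR, CAV1 and AXL lay between percentiles 69.8 and 99.6 of genes by intensity. Those expected to be low (ESR1, PGR, ERBB2, CDH1, GATA3 and FOXA1) all lay at or below percentile 73.4, that of ERBB2. Of 6 fibroblast markers DCN rose and LUM fell, and their summed intensity was 483 to 552 units in controls and 459 to 483 after ING2 siRNA. Of 5 blood cell markers LYZ fell, and the sums were 635 to 701 and 626 to 687 units. None of these markers was at 0. For GAPDH, the 3' control probe set exceeded the 5' one by 0.19 to 0.22 log2 units in control arrays and by 0.27 to 0.35 in ING2 siRNA arrays, with no overlap. For ACTB that difference was 0.37 to 0.58 in control arrays and 0.48 to 0.65 in ING2 siRNA arrays, which overlap. The part of these markers, of these differences in intensity between arrays and of these RNA quality measures in the results below was not tested.

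Of the 47 members, 2 fell and 3 rose at a limma adjusted p under 0.05 (Benjamini-Hochberg over all genes), and 42 did not pass. At an unadjusted p under 0.05 there were 18 members (38.3%), against 32.9% of all genes, the background for such counts below. The falls were in NUP160 and NUP37, both of the Y complex, and the rises in NUP214 of the cytoplasmic face, NUP188 of the inner ring and the importin alpha gene KPNA6. The 5 calls are 10.6% of the members, against 8.29% of all genes and 10.2% of genes at or above the median intensity, so the share called was near the background. By direction, 4.26% of members fell against 4.67% of all genes, and 6.38% rose against 3.62% of all genes. Among genes at or above the median intensity, where 39 of the 47 members lay, 8.25% fell and 1.96% rose. In bulk samples such as these, fewer cells that hold a transcript and less RNA per cell cannot be told apart.

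NUP160, a large scaffold protein of the Y complex, read 362, 453 and 467 units in controls 1 to 3 and 212, 289 and 287 units after ING2 siRNA. Every ING2 siRNA array lay below the lowest control. The level after ING2 siRNA was 61.2% of control (log2 change -0.71, SE 0.14, n = 3 per group, limma adjusted p = 0.0266). NUP37, a beta-propeller protein that binds NUP160 in the complex, read 2148, 2350 and 2274 units in controls and 1768, 1771 and 1540 units after ING2 siRNA. Its groups were also apart, with 74.9% of control remaining (log2 change -0.42, SE 0.09, limma adjusted p = 0.0302).

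NUP214, a repeat nucleoporin of the cytoplasmic face that takes part in export, read 352, 321 and 330 units in controls and 418, 428 and 479 units after ING2 siRNA. All ING2 siRNA arrays lay above all controls, at 132% of control (log2 change 0.40, SE 0.09, limma adjusted p = 0.0313). NUP188, a scaffold protein of the inner ring, read 622, 623 and 625 units in controls and 807, 745 and 783 units after ING2 siRNA. The controls were close together and the other arrays above them, at 125% of control (log2 change 0.32, SE 0.08, limma adjusted p = 0.0381). KPNA6, an importin alpha that binds nuclear localization signals, read 1485, 1666 and 1584 units in controls and 1906, 1952 and 2035 units after ING2 siRNA. That was 125% of control with no overlap (log2 change 0.32, SE 0.08, limma adjusted p = 0.0449), the call nearest the threshold, and 3 other KPNA6 probe sets had values below 0, as described with the probe sets.

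The number of calls depended on single arrays, among members as among all genes. Without control replicate 2, control replicate 3, ING2 siRNA replicate 1 or ING2 siRNA replicate 3, 0 members passed in either direction by limma, while 12, 13, 13 and 14 members had an unadjusted p under 0.05 (25.5% to 29.8%, against 23.1% to 25.6% of all genes). In those fits 2 to 3 of all genes passed. Without control replicate 1, 9 members fell and 3 rose (25.5%, against 13.2% of all genes), and without ING2 siRNA replicate 2, 6 fell and 2 rose (17.0%, against 13.0% of all genes). The log2 changes kept their sign in all 6 fits, from -0.82 to -0.56 for NUP160, -0.45 to -0.35 for NUP37, 0.34 to 0.44 for NUP214, 0.29 to 0.35 for NUP188 and 0.27 to 0.36 for KPNA6. Each of these passed in 2 of the 6 fits except KPNA6, which passed in 0 (limma adjusted p from 0.0564 to 0.143).

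**Figure D1:**
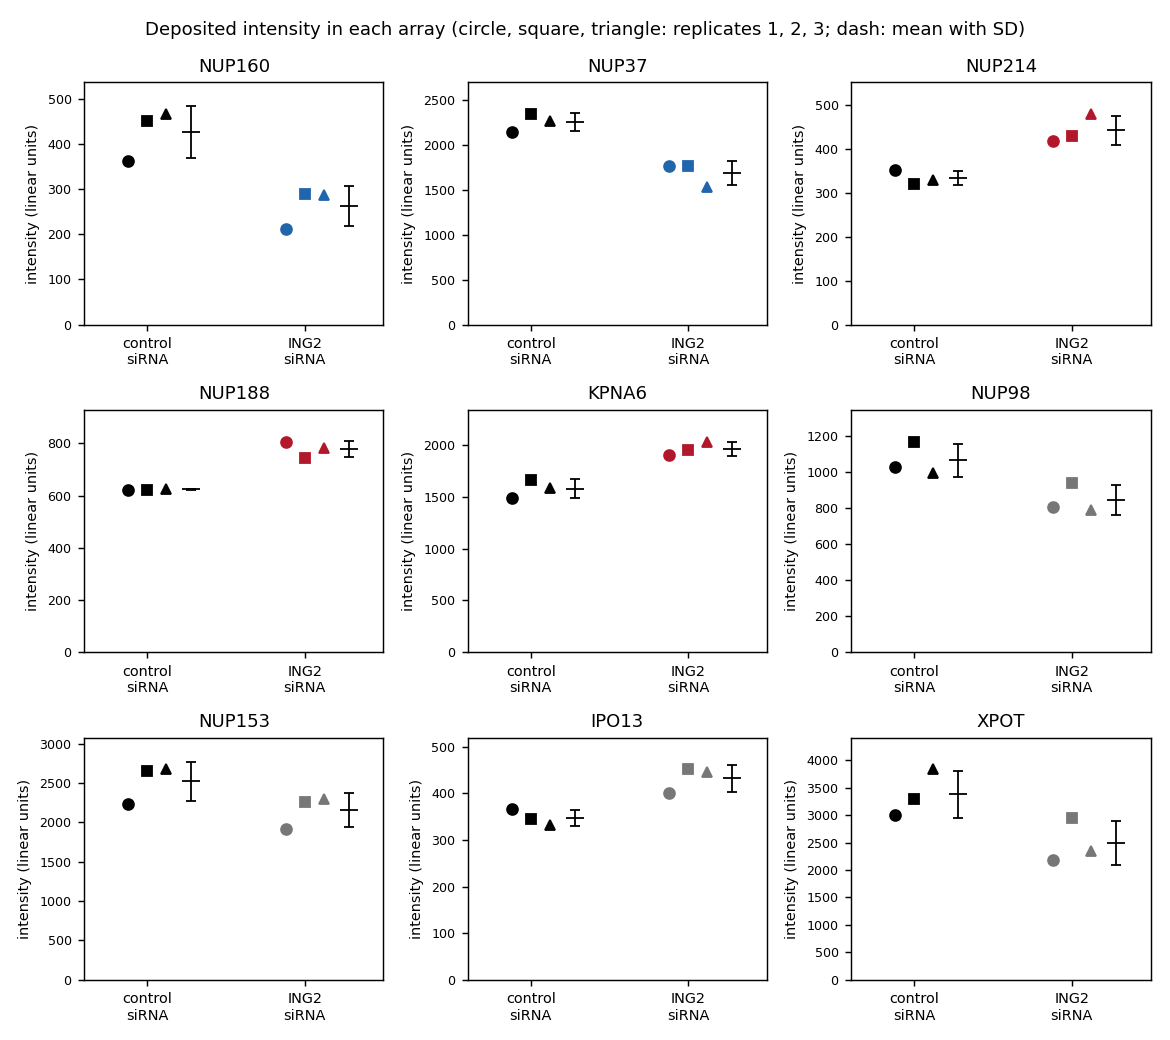
Deposited intensity of 9 members in each array, on linear axes that start at 0, with control siRNA arrays on the left and ING2 siRNA arrays on the right of each panel; the dash and bar beside the points are the mean and SD of 3 arrays. NUP160 and NUP37 (blue) lie lower and NUP214, NUP188 and KPNA6 (red) higher after ING2 siRNA, and NUP98, NUP153, IPO13 and XPOT (grey) each have the smallest p in a role group of coding members in which none passed.

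The promoters of the 5 genes past the threshold in the reported fit are shown, a choice that rests on that threshold alone. Each is the 250 bases before the first gene start that RefSeq lists, read 5' to 3' toward the gene, from GRCh38.p14. Capitals mark matches on either strand to CCAAT (the CCAAT box), GGGCGG (the GC box), CCGGAAG (the core of sites bound by ETS factors) and TGACGTCA (the cyclic AMP response element).
NUP160 (chr11:47848351-47848600, minus strand): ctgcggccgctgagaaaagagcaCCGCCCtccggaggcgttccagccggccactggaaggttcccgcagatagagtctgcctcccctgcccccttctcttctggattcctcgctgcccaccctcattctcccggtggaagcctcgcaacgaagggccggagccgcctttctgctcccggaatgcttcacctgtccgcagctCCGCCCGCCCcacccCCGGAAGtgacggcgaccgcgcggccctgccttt
NUP37 (chr12:102120115-102120364, minus strand): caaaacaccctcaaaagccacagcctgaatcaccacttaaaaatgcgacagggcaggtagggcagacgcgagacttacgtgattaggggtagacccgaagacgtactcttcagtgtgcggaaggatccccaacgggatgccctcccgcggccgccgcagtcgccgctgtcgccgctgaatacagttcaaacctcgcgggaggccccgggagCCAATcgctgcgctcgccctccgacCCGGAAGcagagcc
NUP214 (chr9:131125336-131125585, plus strand): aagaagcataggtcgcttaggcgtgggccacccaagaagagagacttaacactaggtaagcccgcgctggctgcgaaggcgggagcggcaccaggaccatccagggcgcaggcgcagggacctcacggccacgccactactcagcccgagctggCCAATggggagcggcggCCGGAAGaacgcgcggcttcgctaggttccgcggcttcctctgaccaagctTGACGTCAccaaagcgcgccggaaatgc
NUP188 (chr9:128947449-128947698, plus strand): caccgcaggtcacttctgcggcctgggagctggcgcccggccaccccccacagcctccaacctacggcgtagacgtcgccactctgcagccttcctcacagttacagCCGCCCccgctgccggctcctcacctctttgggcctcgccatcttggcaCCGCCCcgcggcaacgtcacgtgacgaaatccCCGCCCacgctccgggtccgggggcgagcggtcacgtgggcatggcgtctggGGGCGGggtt
KPNA6 (chr1:32107806-32108055, plus strand): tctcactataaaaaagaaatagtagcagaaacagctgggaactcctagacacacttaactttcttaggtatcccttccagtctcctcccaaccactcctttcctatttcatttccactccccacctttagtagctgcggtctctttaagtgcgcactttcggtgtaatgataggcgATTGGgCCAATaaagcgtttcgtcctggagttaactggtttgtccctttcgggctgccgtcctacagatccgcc
The windows shown for both genes that fell held CCGGAAG, 34 bases before the start in NUP160 and 14 bases before it in NUP37. So did that of NUP214, which rose, at 79 bases. NUP214 also held TGACGTCA at 28 bases before the start. NUP160 had 3 matches to GGGCGG, of which 2 overlap, and NUP188 had 4. KPNA6 had 2 matches to CCAAT, 1 on each strand and next to each other. RefSeq lists a second start for NUP160 and for NUP214, and the windows before those starts, not shown, held no CCGGAAG.

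Promoters were listed for 40 of the 47 members, 50 windows in all. CCGGAAG was in 24% of these windows and in 8.52% of all 35116 listed promoters of the same length, and TGACGTCA in 10% and 1.65%. The shares for CCAAT were 48% and 32.0%, and for GGGCGG 48% and 42.6%. Other motifs searched on both strands were CACGTG (the E-box, 12% and 6.34%), GCATGCGC (part of the NRF1 site, 10% and 2.63%) and TTTGAA (an element of many mitotic gene promoters, 20% and 13.3%). Of the genes past the threshold, NUP188 held CACGTG and NUP37 held TTTGAA, which are not marked above. Of the 11 coding members with CCGGAAG, 9 had log2 changes below 0 and 2, NUP214 and IPO4, above 0, against 26 below and 11 above among all 37 coding members with a listed promoter. The set of all listed promoters was not matched to the members by intensity or gene type, and a gene with several listed starts counted more than once. Whether the shares are particular to these members was not tested. A match describes the letters of the window and is not a measured binding site.

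Log2 changes of the 47 members ran from -0.71 to 0.40 with a median of -0.11, against a median of 0.06 over all genes and -0.04 over genes at or above the median intensity. Values were below 0 in 32 members (68.1%), against 38.3% of all genes, in 28 after cyclic loess (59.6%, against 43.2%) and in 25 after quantile normalization (53.2%, against 38.0%). Among the 39 members at or above the median intensity, 29 had a value below 0 (74.4%), against 57.5% of all such genes. Many members were brighter still, and over all genes in the top quartile of intensity 66.3% were below 0, with a median of -0.08. The median over members moved to -0.06 with cyclic loess (0.03 over all genes) and to -0.03 with quantile normalization (0.06 over all genes), which remove differences between arrays that follow intensity. Changes over all genes followed intensity, since with genes sorted into 10 bins the medians reached 0.15 among dim genes and -0.09 in the brightest bin. Quantile normalization also turned the split over all genes from 716 rises and 924 falls to 944 rises and 623 falls. After cyclic loess 3 members fell and 4 rose, while 5.73% of all genes passed (3.47% lower and 2.26% higher). After quantile normalization 2 fell and 4 rose, while 7.92% of all genes passed (3.15% lower and 4.77% higher).

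The groups did not overlap in 16 members, 11 with lower values after ING2 siRNA (23.4%) and 5 with higher values (10.6%). Over all genes 13.8% lay apart as lower and 22.8% as higher (36.5% in all), and over genes at or above the median intensity 24.2% and 17% (41.3% in all). Over genes in the top quartile of intensity these shares were 31.1% and 12.5%. Relative to the control mean of each gene, the median over members was -0.09, 0.07 and 0.0044 in control replicates 1, 2 and 3, and -0.10, -0.03 and -0.13 in ING2 siRNA replicates 1, 2 and 3. Control replicate 1 therefore lay below ING2 siRNA replicate 2, with 37 and 28 members below their control mean in these arrays.

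**Figure D2:**
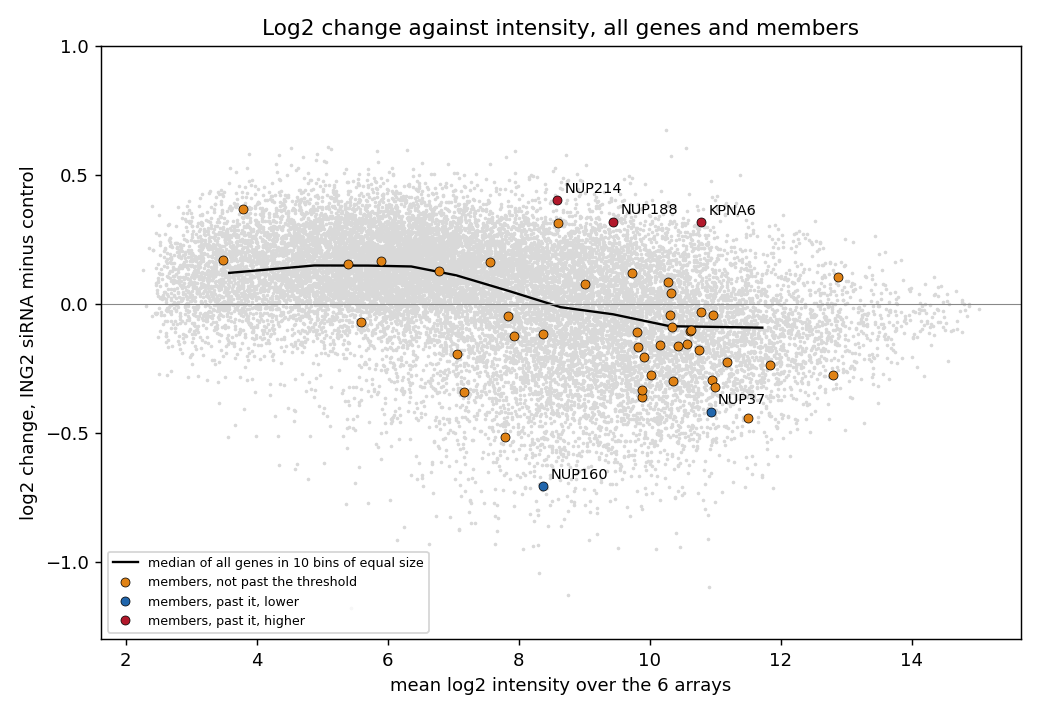
Log2 change after ING2 siRNA against mean log2 intensity over the 6 arrays for all genes (grey) and the 47 members (orange, or blue and red where past the threshold), with the median of all genes in 10 intensity bins as a line. Most members lie in the bright part of the range where the line is below 0, and 1 gene (ING2) falls outside the plotted range.

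The Y complex forms the outer rings of the pore. Its scaffold nucleoporins with a NUP name had values below 0 in 6 of 6 members, with a median of -0.23. Of all genes at or above the median intensity 57.5% had values below 0, and of those in the top quartile 66.3%. NUP85 turned positive after cyclic loess, and NUP85 and NUP133 after quantile normalization. Subunits of the complex without a NUP name were not members. Of these, SEC13 had a value of 0.03 (0.14 after cyclic loess), AHCTF1 one of -0.16 and SEH1L one of -0.46, none past the threshold. Besides the 2 that fell, NUP43 read 2009, 2134 and 2416 units in controls and 1828, 1815 and 1694 units after ING2 siRNA, apart but not past the threshold (log2 change -0.29, SE 0.09, limma adjusted p = 0.0661). NUP107, NUP133 and NUP85, which form the stem and short arm of the complex, had values of -0.16, -0.11 and -0.04. For NUP85 the 95% interval of the log2 change was -0.21 to 0.13, and its value was 0.06 after cyclic loess. NUP160 fell further than NUP85 in these arrays, by 0.66 on the log2 scale. The per-array differences did not overlap between groups (exact two-sided permutation p = 0.1, the smallest that 3 against 3 arrays allow).

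Inner ring and pore membrane genes showed 1 rise, NUP188, and 0 falls among 7 members by limma. NUP205, a paralogue of NUP188 with a like place in the inner ring, read 1678, 1931 and 1932 units in controls and 1646, 1670 and 1571 units after ING2 siRNA. These groups were just apart, with a log2 change of -0.18 (SE 0.09, limma adjusted p = 0.178) and a 95% interval of -0.37 to 0.01. The changes of NUP188 and NUP205 differed by 0.50 on the log2 scale, with per-array differences that did not overlap (exact two-sided permutation p = 0.1). NUP35, which joins the inner ring to the membrane, had a value of -0.30 (limma adjusted p = 0.0686) and lay apart as lower. Values were 0.12 for the inner ring organizer NUP93, -0.17 for NUP155, -0.12 for the membrane protein NUP210 and 0.17 for its dim paralogue NUP210L, which read between 8.91 and 13.6 units in all arrays.

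Among genes listed under the central channel none of 5 passed by limma, while 3 had an unadjusted p under 0.05 and the median was -0.34. NUP98, which lines the channel and is also found away from the pore, had the smallest p. It read 1029, 1168 and 992 units in controls and 805, 939 and 786 units after ING2 siRNA, apart as lower (log2 change -0.34, SE 0.10, limma adjusted p = 0.0604). Its 2 other probe sets had values of 0.06 and 0.15. NUP58 and NUP54, which form a trimer with NUP62, had values of -0.51 (SE 0.18, limma adjusted p = 0.0818) and -0.36 (SE 0.14, adjusted p = 0.116) with overlapping groups. NUP62 itself had a value of 0.04, with a 95% interval of -0.15 to 0.23, and the related NUP62CL a value of -0.19.

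On the cytoplasmic face NUP214 rose and the other 2 members did not pass. NUP88, which binds NUP214 and anchors it, read 1021, 1183 and 1225 units in controls and 923, 1059 and 856 units after ING2 siRNA. ING2 siRNA replicate 2 lay above the lowest control (log2 change -0.27, SE 0.11, limma adjusted p = 0.109). The changes of NUP214 and NUP88 differed by 0.68 on the log2 scale (exact two-sided permutation p = 0.1). NUP42, which acts with the export factor GLE1, had a value of -0.12. In the nuclear basket, 0 of 2 members passed by limma and 0 had an unadjusted p under 0.05. NUP153, which anchors the basket, read 2234, 2648 and 2675 units in controls and 1909, 2261 and 2294 units after ING2 siRNA, overlapping between groups (log2 change -0.23, SE 0.11, limma adjusted p = 0.165). NUP50, a basket protein that helps release importin alpha cargo, had a value of -0.10 at its brightest probe set.

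**Figure D3:**
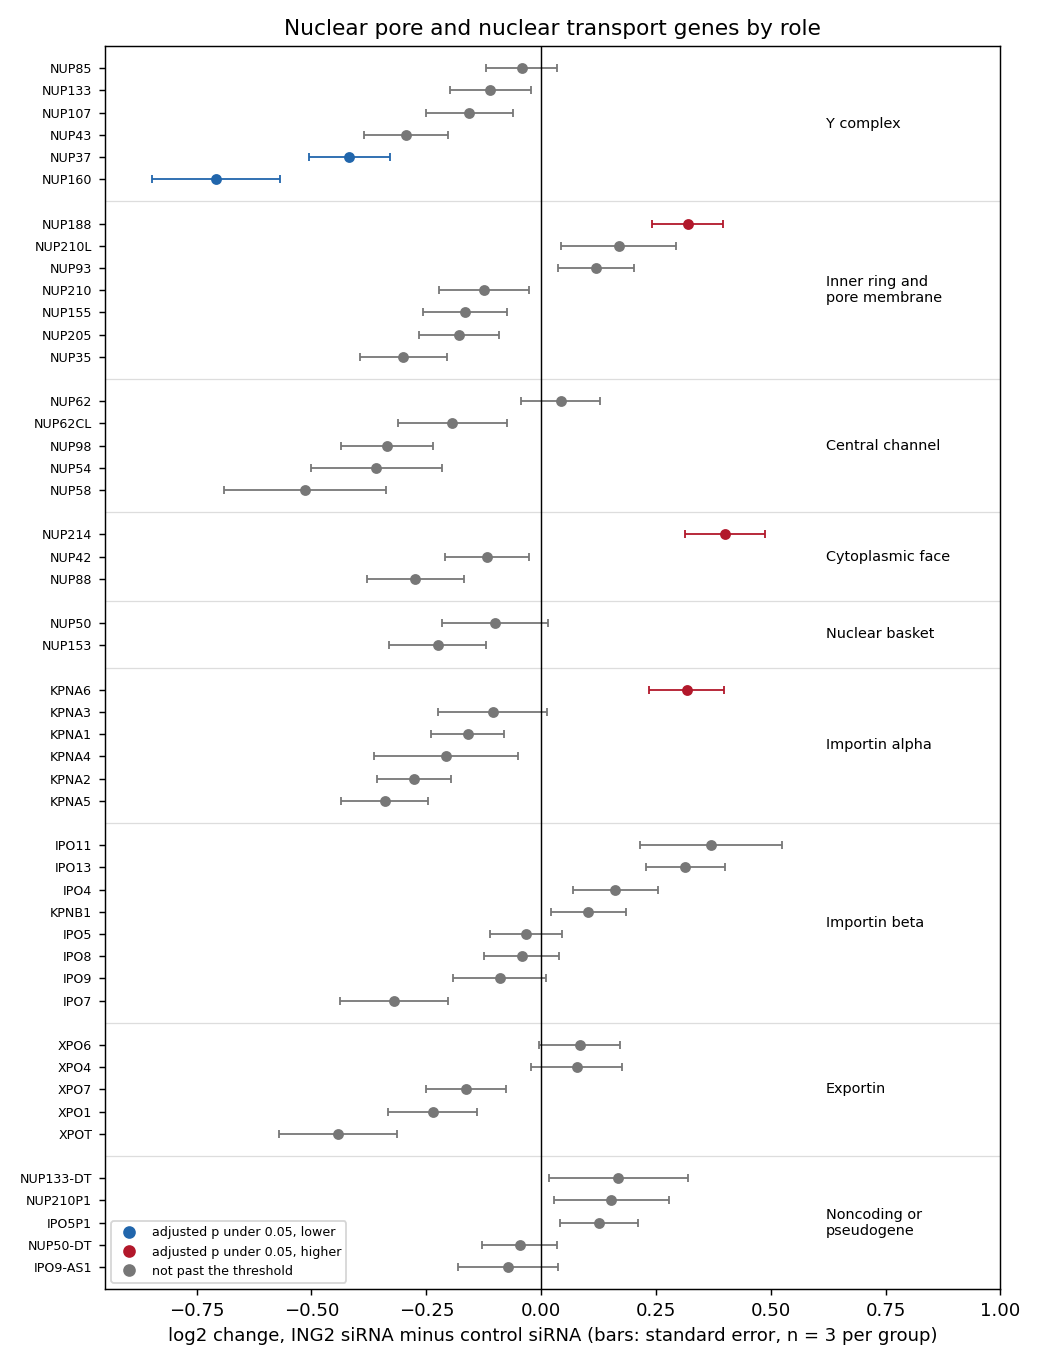
Log2 change (ING2 siRNA minus control siRNA) of each of the 47 members with its standard error from limma, 3 arrays per group, ordered by role. The 2 falls (blue) lie in the Y complex, and the 3 rises (red) are NUP188, NUP214 and KPNA6.

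Importin alpha proteins are adaptors that bind a cargo's localization signal and importin beta. Of 6 genes KPNA6 rose and none fell by limma, while 5 had values below 0 (KPNA3 turned positive after quantile normalization) and 3 lay apart as lower. Of all genes at or above the median intensity, 57.5% had values below 0 and 24.2% lay apart as lower. KPNA5, of the same subfamily as KPNA6, read 151, 177 and 159 units in controls and 118, 135 and 131 units after ING2 siRNA (log2 change -0.34, SE 0.09, limma adjusted p = 0.0514). It passed after cyclic loess (-0.39, adjusted p = 0.0417) and quantile normalization (-0.35, adjusted p = 0.0481). KPNA6 rose only at its brightest probe set, with values of -0.04, -0.36 and -0.21 at the 3 dimmer ones. The changes of KPNA6, at its brightest probe set, and KPNA5 differed by 0.66 on the log2 scale (exact two-sided permutation p = 0.1). This pair and the 3 others set against each other (NUP160 and NUP85, NUP188 and NUP205, NUP214 and NUP88) were picked after their values were seen, and adjustment over the 4 exact permutation tests leaves p = 0.1. KPNA2, a bright importin alpha gene of proliferating cells, read 7417, 8122 and 7903 units in controls and 6460, 6691 and 6195 units after ING2 siRNA (log2 change -0.28, SE 0.08, limma adjusted p = 0.0570). That value was -0.16 after cyclic loess (adjusted p = 0.207). KPNA1, KPNA3 and KPNA4 had values of -0.16, -0.11 and -0.21, none past the threshold.

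Importin beta receptors carry cargo through the pore themselves or with an adaptor. None of 8 passed by limma, 3 had an unadjusted p under 0.05, and the median was 0.04. IPO13, which carries cargo in both directions, read 366, 345 and 332 units in controls and 400, 452 and 446 units after ING2 siRNA. All ING2 siRNA arrays were above all controls, with a value just outside the threshold (log2 change 0.31, SE 0.09, limma adjusted p = 0.0507). It passed as higher after cyclic loess (0.35, adjusted p = 0.0407) and quantile normalization (0.40, adjusted p = 0.0297). IPO7, an importer of ribosomal proteins and histone H1, had a value of -0.32 (SE 0.12, limma adjusted p = 0.0967). KPNB1, the importin beta that works with importin alpha, read 7091, 7549 and 7095 units in controls and 7348, 8189 and 7817 units after ING2 siRNA (log2 change 0.10, 95% interval -0.08 to 0.28). IPO5, IPO8 and IPO9, which import ribosomal proteins, histones and other cargo, had values of -0.03, -0.04 and -0.09 in the deposited values and of 0.07, 0.05 and 0.01 after cyclic loess. Values were 0.16 for IPO4 and 0.37 for IPO11, and the IPO11 probe set was dim, between 10.9 and 19.0 units.

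Exportins had 0 calls among 5 members by limma and 2 with an unadjusted p under 0.05. XPOT, which carries tRNA out of the nucleus, read 2997, 3297 and 3839 units in controls and 2177, 2949 and 2353 units after ING2 siRNA. ING2 siRNA replicate 2 lay just below the lowest control (log2 change -0.44, SE 0.13, limma adjusted p = 0.0569). Cyclic loess gave XPOT a value of -0.34 (adjusted p = 0.106). XPO1, the receptor for leucine-rich export signals, read 3597, 4221 and 4145 units in controls and 3244, 3724 and 3187 units after ING2 siRNA, which overlap (log2 change -0.24, SE 0.10, limma adjusted p = 0.127). XPO7 had a value of -0.16, XPO4, a carrier of eIF5A and SMAD3, a value of 0.08, and XPO6, the exportin of actin, a value of 0.08.

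The 5 noncoding members or pseudogenes had 0 calls by limma and 0 with an unadjusted p under 0.05. Their log2 changes ran from -0.07 to 0.17, and 4 of the 5 lay below the median intensity. IPO5P1, a pseudogene of IPO5 that can share sequence with it, had the smallest p, reading 98.9, 110 and 107 units in controls and 115, 121 and 108 units after ING2 siRNA (log2 change 0.13, SE 0.08, limma adjusted p = 0.312).

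The choice of the brightest probe set mattered for several genes. More than 1 probe set was present for 34 members, and in 18 of these the log2 changes lay on both sides of 0. Fitted over all probe sets, 9 of 122 member probe sets passed (7.38%), 8 lower and 1 higher, against 5.28% of all probe sets (3.64% lower and 1.64% higher). Of these 9, 3 were the brightest of their gene, those of NUP160, NUP37 and NUP214, and the other 6 were dimmer ones, all lower.

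All 3 probe sets of NUP214 had values above 0 and did not overlap between groups (0.40, 0.30 and 0.31, and 0.44, 0.31 and 0.25 after cyclic loess). All 3 of NUP188 had values above 0 (0.32, 0.17 and 0.17), but after cyclic loess the 2 dimmer ones had only 0.08 and 0.06, against 0.39 at the brightest. None of the 3 passed over all probe sets, the brightest with limma adjusted p = 0.0537. NUP160 had values of -0.71, -0.25 and 0.13 from its brightest, dimmest and middle probe set. The brightest and dimmest lay apart as lower. The middle one lay apart as higher, with 243, 243 and 237 units in controls and 251, 295 and 250 units after ING2 siRNA (limma adjusted p = 0.362 over all probe sets). For KPNA6 the brightest had a value of 0.32 and the 3 others values of -0.04, -0.36 and -0.21. The probe set with -0.36 read 414, 453 and 527 units in controls and 324, 379 and 378 units after ING2 siRNA, apart in the opposite direction. The mean over its probe sets gave KPNA6 a value of -0.07 (limma adjusted p = 0.46).

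Dimmer probe sets that fell were found in NUP50, IPO5, KPNA1, KPNA4 and KPNA5. For NUP50, one read 401, 519 and 442 units in controls and 260, 295 and 297 units after ING2 siRNA (log2 change -0.67, limma adjusted p = 0.0160 over all probe sets), against a value of -0.10 at the brightest. For IPO5, one read 698, 853 and 868 units in controls and 484, 538 and 523 units after ING2 siRNA (-0.64, limma adjusted p = 0.0152), against -0.03. KPNA1 had 6 probe sets, all with values below 0 from -0.46 to -0.16, of which 2 fell (limma adjusted p = 0.0267 and 0.0306). One of 5 KPNA4 probe sets fell (-0.49, limma adjusted p = 0.0274), as did the dimmest of KPNA5 (-0.45, adjusted p = 0.0261). In NUP58 and IPO7 all 4 probe sets had values below 0, from -0.62 to -0.26 and from -0.40 to -0.30, and none passed. In KPNB1 the brightest had a value of 0.10 and the 5 others values below 0, the lowest -0.31.

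**Figure D4:**
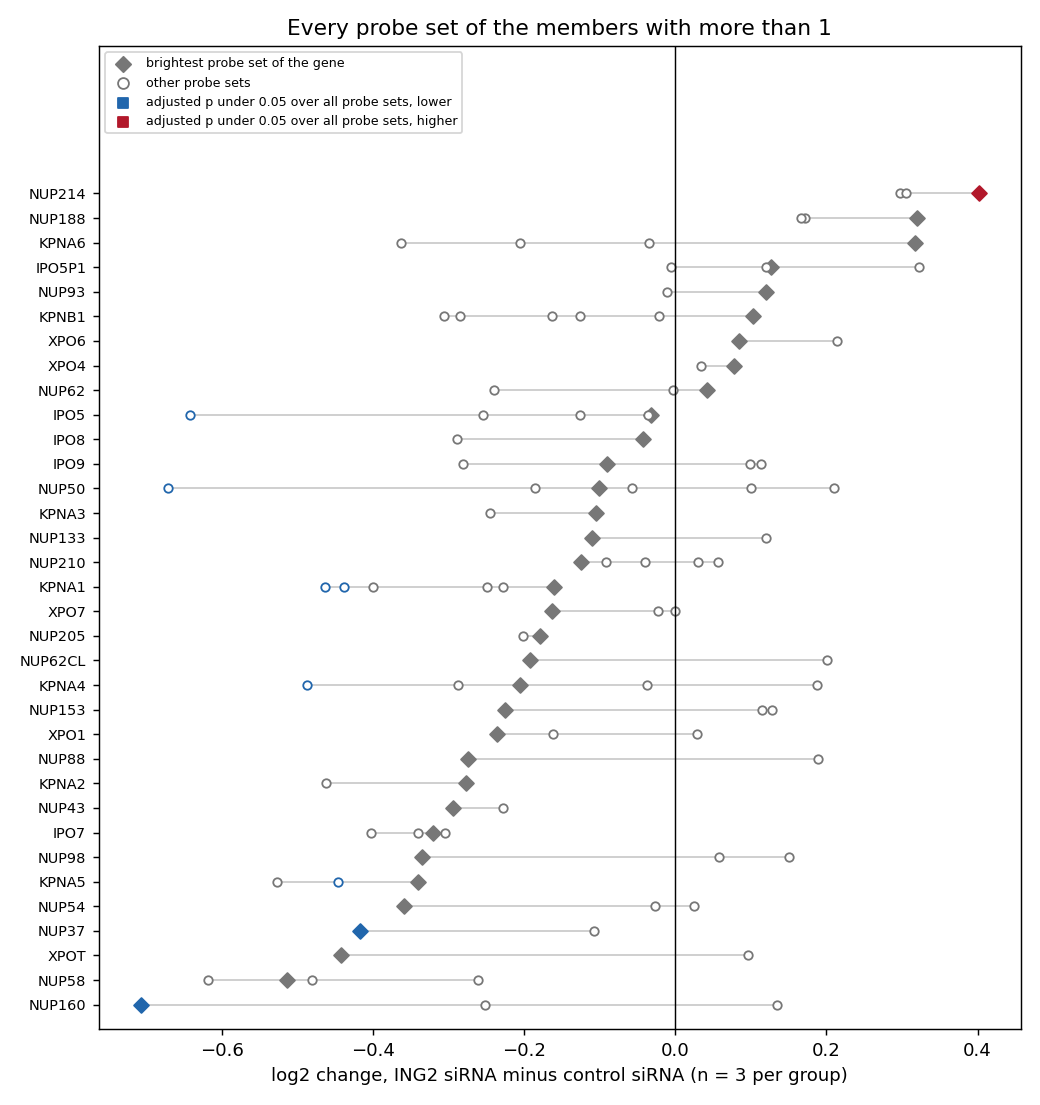
Log2 change of every probe set of the 34 members with more than 1, with the brightest as a diamond and the others as circles, blue or red where the adjusted p over all probe sets was under 0.05. The probe sets of NUP214 and NUP188 lie on the right of 0, those of KPNA6 on both sides, and the 6 dimmer probe sets past the threshold are all on the left.

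Other genes of the pathway, in lists by role that were drawn up with earlier results of these data known, had 8 falls and 0 rises among 70 measured genes by limma (11.4% lower, against 4.67% of all genes and 8.25% of those at or above the median intensity, where 64 of the 70 lay). At an unadjusted p under 0.05, 20 were lower and 5 higher, 25 of 70, against 32.9% of all genes in either direction. Nucleoporins without a NUP name showed 0 calls among 11, and 2 with an unadjusted p under 0.05. RANBP2, the large filament nucleoporin of the cytoplasmic face, whose sequence is shared in part by RGPD genes, had a value of -0.39 (limma adjusted p = 0.0525), and SEH1L of the Y complex a value of -0.46 (limma adjusted p = 0.0617).

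In the Ran cycle RAN fell and 8 genes did not pass. RAN, the GTPase that gives transport its direction, read 6926, 6812 and 6716 units in controls and 5467, 5324 and 4608 units after ING2 siRNA, 75.1% of control (log2 change -0.41, SE 0.09, limma adjusted p = 0.0308). It had adjusted p = 0.0563 after cyclic loess. Of 11 other transport receptors and adaptors 2 fell. PHAX, the adaptor for export of small nuclear RNA, read 683, 859 and 877 units in controls and 428, 529 and 355 units after ING2 siRNA, 53.9% of control (log2 change -0.89, SE 0.15, limma adjusted p = 0.0195). RANBP6, a relative of IPO5, read 336, 441 and 387 units in controls and 239, 321 and 239 units after ING2 siRNA (log2 change -0.55, SE 0.14, limma adjusted p = 0.0413). Both passed after cyclic loess too.

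Factors of mRNA export had 4 falls among 20 genes. The largest after SEM1, a subunit of both the proteasome and an mRNA export complex (-1.10, SE 0.10, limma adjusted p = 0.00402), was that of SARNP, an RNA-binding protein of the TREX export complex (-0.53, SE 0.10, limma adjusted p = 0.0261). THOC7, also of TREX, had a log2 change of -0.50 (limma adjusted p = 0.0385) and the cap-binding subunit gene NCBP2 one of -0.40 (limma adjusted p = 0.0417), and with cyclic loess neither passed (0.0617 and 0.0662). In the nuclear envelope and lamina 1 of 19 genes fell. LBR, the lamin B receptor, read 3181, 3995 and 3964 units in controls and 2358, 2841 and 2202 units after ING2 siRNA (log2 change -0.59, SE 0.12, limma adjusted p = 0.0293). Without control replicate 2, control replicate 3, ING2 siRNA replicate 1 or ING2 siRNA replicate 3, 1 of the 70 genes passed in each fit, and after cyclic loess 5 did.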

How the data were processed

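Total RNA of 6 samples was amplified to labelled cRNA and hybridised to 6 one-colour 3' expression arrays, per the labels' protocols. The authors deposited a linear intensity per probe set (4.05 to 33803 units), and the submitters' processing notes name RMA and R 2.12. How linear values were made, or filtered, is not stated in those notes as given here.

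Gene names came from the array platform's annotation of 2016, updated to a RefSeq table of GRCh38.p14, which held all 47 members. A gene was measured by the brightest probe set that names it alone. Log2 values (no pseudocount, no filter) went into limma 3.58.1 under R 4.3.3 (lmFit, eBayes), ING2 siRNA minus control, no covariate, with Benjamini-Hochberg adjustment over 19777 genes.

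The members and lists were chosen with earlier results of these data known. All members could be named, with values in every array for those past the threshold and, in role groups with none, for the one with the smallest p. In the other pathway lists the genes past the threshold were named, up to 3 falls and 3 rises, or the 2 with the smallest p. Values in every array of NUP43, NUP205, NUP88, KPNA5, KPNA2, KPNB1 and XPO1, those of dimmer probe sets, and NCBP2, the fourth fall of its list, were added after they were seen. So were the values of SEC13 and AHCTF1. The fit was tested on simulated data that used each gene's own mean and spread. Of 100 genes given a log2 change of 0.5 in size 52% passed, of 100 given 1 91% passed, and of those given 0 0.0102% passed. Smaller changes were not simulated, so a member that did not pass may still have changed. Alternatives were quantile normalization, cyclic loess, leaving out dim genes, other probe set choices, an intensity trend, a replicate block, fits without each array, other thresholds and symbols as annotated.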

Additional observations from a re-analysis of the deposited data

How the results depend on the processing

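Counts of members past the threshold were small and moved with most settings, as did the share of all genes called, 8.29% in the reported fit. The 2 falls became 6 with genes under the 0.25 quantile of intensity left out, 6 with probe sets averaged per gene, 8 with the most variable probe set (by interquartile range), 7 with an intensity trend and robust eBayes, 0 at an adjusted p under 0.01 and 10 at one under 0.1. The 3 rises became 0 at an adjusted p under 0.01. In the same order, 14.3%, 13.2%, 16.5%, 12.2%, 0.0101% and 22.8% of all genes passed in either direction. Rises numbered 4, 2, 4 and 4 in the first 4 of these settings. There 23.3%, 17.0%, 25.5% and 23.4% of the members tested passed in either direction. Over the 6 fits that left out 1 array, falls ranged from 0 to 9, rises from 0 to 3 and the median over members from -0.17 to -0.08. That median was -0.0335 after quantile normalization and -0.18 with the most variable probe set. Falls in other pathway genes numbered 5 after cyclic loess, 18 with the mean of probe sets, 20 with the most variable probe set (and 2 rises), 14 with the intensity trend and 1 to 14 without single arrays (rises 0 to 1). Of the 5 members called, 5 remained past the threshold after cyclic loess, 4 after quantile normalization (NUP37 had limma adjusted p = 0.0563) and 2 with the mean of probe sets. ING2 passed in every fit, from -3.07 to -2.96 without single arrays. The cause of these shifts was not tested.

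With the replicate number as a block, 9 members fell, 5 rose (29.8%, against 17.7% of all genes) and 16 other pathway genes fell. Deviations from the group means correlated at 0.26, 0.29 and -0.02 between arrays numbered 1, 2 and 3 over genes, and control replicate 3 correlated best with ING2 siRNA replicate 2 (0.10). Control replicates 1 and 2 correlated best with their own number. The labels give no basis for pairing and the correlation was not above 0 for every pair, so the numbers were not used as pairs, and whether some arrays were paired is not known.

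Values that changed sign were mostly near 0. After quantile normalization these were IPO5 (0.10), IPO8 (0.0771), IPO9 (0.0329), KPNA3 (0.0175), NUP133 (0.00313), NUP50 (0.0272), NUP85 (0.0922), and after cyclic loess IPO5 (0.0674), IPO8 (0.0528), IPO9 (0.00532), NUP85 (0.0589). With probe sets averaged they were KPNA6 (-0.0718), KPNB1 (-0.13), NUP133 (0.00467), NUP153 (0.00594), NUP62 (-0.0669), NUP62CL (0.00421), and with the most variable probe set KPNB1 (-0.29), NUP62 (-0.24), NUP93 (-0.0108). In fits without single arrays the log2 change of 6 members crossed 0: IPO9 from -0.15 to 0.0172, IPO9-AS1 from -0.13 to 0.0365, KPNA3 from -0.22 to 0.0129, NUP50-DT from -0.078 to 0.0021, NUP62 from -0.00565 to 0.0847, XPO4 from -0.00215 to 0.17. Of 75 dimmer probe sets, 30 had the opposite sign to the brightest: IPO5P1 (-0.00607), IPO9 (0.099, 0.11), KPNA4 (0.19), KPNA6 (-0.0353, -0.36, -0.21), KPNB1 (-0.16, -0.13, -0.0219, -0.31, -0.29), NUP133 (0.12), NUP153 (0.11, 0.13), NUP160 (0.13), NUP210 (0.0296, 0.0564), NUP50 (0.10, 0.21), NUP54 (0.0246), NUP62 (-0.00304, -0.24), NUP62CL (0.20), NUP88 (0.19), NUP93 (-0.0108), NUP98 (0.15, 0.0577), XPO1 (0.029), XPOT (0.0962).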

Other observations

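Probe sets that name IPO11 together with another gene were outside the rule. Of those shared with the readthrough gene IPO11-LRRC70, the brighter read 1180, 1291 and 1104 units in controls and 1078, 1083 and 1042 units after ING2 siRNA (log2 change -0.16, limma adjusted p = 0.279 over all probe sets). The dimmer read 140, 183 and 199 units in controls and 103, 115 and 109 units after ING2 siRNA (-0.66, limma adjusted p = 0.0259). Both lay apart as lower, while the dim probe set that names IPO11 alone had a value of 0.37 with overlapping groups.

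The noncoding members NUP133-DT, NUP50-DT and IPO9-AS1 each start close to a coding member on the opposite strand in RefSeq. NUP133-DT starts 89 bases from NUP133, and their log2 changes were 0.17 and -0.11. NUP50-DT starts 144 bases from a start of NUP50, with values of -0.05 and -0.10, and IPO9-AS1 starts 402 bases from IPO9, with values of -0.07 and -0.09. None of these 6 values passed the threshold by limma.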
